A study of Mus musculus with 72 samples.

Results

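MicroRNAs (miRNAs) were measured in the lungs of mice 48 h after a single whole body X-ray dose of 2 Gy and compared with those of sham-irradiated mice (0 Gy), 3 mice per group. These were the 6 lung miRNA arrays labelled 2 Gy or 0 Gy, of 72 arrays in the series. The series also holds 1, 4, 8 and 12 Gy, the liver, and mRNA arrays. All mice were female C57BL/6 J without any labelled genetic change, 6 to 8 weeks old, and the irradiated mice received their dose at 1.05 Gy/min. Control mice were mice 1, 11 and 21, and 2 Gy mice were mice 3, 13 and 23, by the sample numbers in the labels. That a number means the same mouse across tissues and RNA types was assumed. The design text of the series speaks of hearts, whereas the label of each array used here names lung. In the lung mRNA arrays with these numbers, all 12 lung markers tested lay above background on all 6 arrays. Among them were the club cell gene Scgb1a1, the surfactant gene Sftpc and the alveolar type I marker Ager. The array carried probes for 1881 mouse miRNAs, and the 417 with a probe well above background on at least 1 of the 18 lung arrays were tested.

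A miRNA is a short RNA cut from a hairpin precursor, whose 2 arms give a 5p and a 3p product. It guides silencing proteins to mRNAs that pair with its seed, bases 2 to 8, so that miRNAs with 1 seed share most of their predicted targets. The p53 protein, which DNA breaks stabilise, switches on transcription of the miR-34a hairpin, and miR-34 lowers proteins that cells need to divide. The miR-142a hairpin is made almost only in cells of the blood lineage, leukocytes among them. miR-150 is abundant in mature B and T lymphocytes, and miR-223 belongs to neutrophils and other myeloid cells. In whole lung RNA, fewer cells of a type and less of a miRNA per cell cannot be told apart.

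The mature sequences that the main differences turned on are given below from RefSeq on build GRCm38.p6, 5′ to 3′, with the seed in capitals. In all, 353 of the 417 tested miRNAs had a mature sequence there. The first 4 lines show both arms of the miR-34a hairpin (chr4:150068473-150068494 and chr4:150068517-150068537, plus strand) and of the miR-142a hairpin (chr11:87756867-87756887 and chr11:87756903-87756925, plus strand).
miR-34a-5p: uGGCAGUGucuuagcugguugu
miR-34a-3p: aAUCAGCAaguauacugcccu
miR-142a-5p: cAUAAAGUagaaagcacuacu
miR-142a-3p: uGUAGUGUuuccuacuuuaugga
The myeloid miR-223-3p lies at chrX:96242884-96242905, plus strand.
miR-223-3p: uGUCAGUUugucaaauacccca
The next line, miR-34b-5p (chr9:51103610-51103632, minus strand), carries the seed of miR-34a-5p but comes from another locus.
miR-34b-5p: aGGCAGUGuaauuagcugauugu
The last pair, from neighbouring hairpins on chromosome 11 (chr11:75173443-75173464 and chr11:75173723-75173744, plus strand), share a seed and had mean changes of opposite sign.
miR-212-3p: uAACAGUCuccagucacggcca
miR-132-3p: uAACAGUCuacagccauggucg

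Levels are log2 intensities after background correction and quantile normalization over the 18 lung arrays, and a difference of 1 is a factor of 2. At 2 Gy both arms of miR-142a fell by more than this factor, miR-150-5p fell by 42.6%, and miR-34a-5p rose 1.78-fold. By the study's rule, an absolute log2 fold change above 1 with a Benjamini-Hochberg adjusted p below 0.05 in limma, 2 miRNAs were lower at 2 Gy (0.48% of the 417 tested) and 0 were higher. The 2 were miR-142a-3p and miR-142a-5p. By the adjusted p alone in limma, 89 miRNAs were higher (21.3%) and 19 lower (4.56%), 108 in all (25.9%), while 165 had an unadjusted p below 0.05. The median change of all 417 was 0.17. It was 0.11 for the 248 above background on all 6 arrays and 0.25 for the 155 on 1 to 5. Counted from the median of all 417, 4 miRNAs were higher (0.959%) and 51 lower (12.2%). The split therefore depended on the scaling. With arrays set to the 75th percentile of probes above background on all lung arrays, 16 were higher and 242 lower, and with the 75th percentile of all probes 373 were higher and 0 lower. Centring each array on its median left 7 higher and 23 lower. Leaving out 2 Gy mouse 23 lowered the 108 miRNAs past the adjusted p to 18, leaving out 2 Gy mouse 13 to 33, 2 Gy mouse 3 to 66, and control mouse 21 to 40. Both called miRNAs came from 1 hairpin, and the number called stayed 2 with any 1 mouse left out. It was larger under both percentile scalings.

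**Figure D1:**
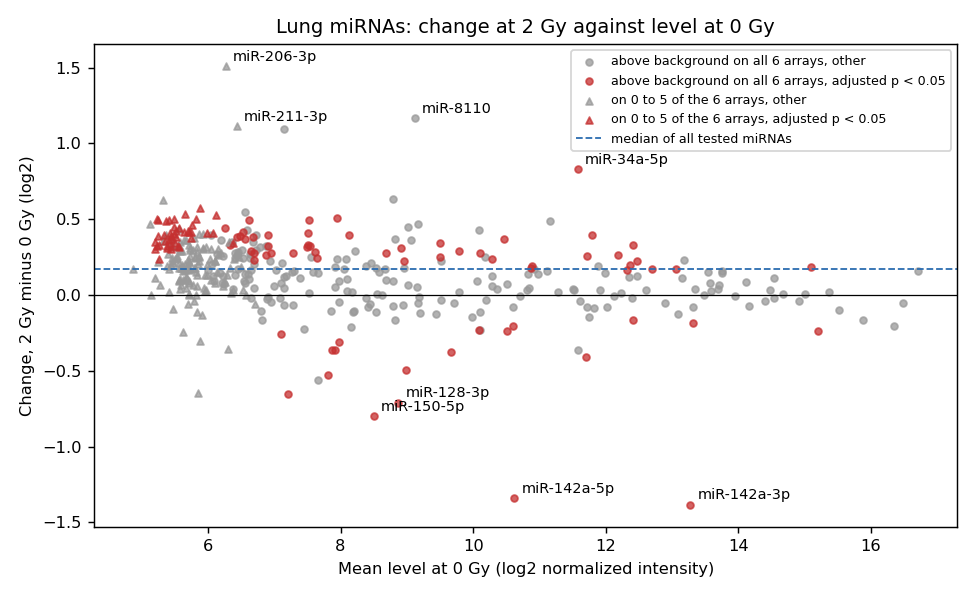
Change at 2 Gy minus 0 Gy (y, log2) against the mean level at 0 Gy (x, log2 normalized intensity) for the 417 lung miRNAs; circles were well above background on all 6 arrays, triangles on 0 to 5, red marks an adjusted p below 0.05, and the dashed line is the median of 0.17. The miR-142a arms lie alone near -1.4, and many dim miRNAs lie slightly above the dashed line.

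The slide on which an array was hybridised moved with dose. All 0 Gy and 1 Gy lung miRNA arrays were on 1 slide, the 2 Gy arrays shared a different slide with 4 Gy mouse 4, and the remaining 4, 8 and 12 Gy arrays were on another. Within the lung, slide and dose therefore cannot be told apart for 2 Gy against 0 Gy. The number of miRNAs above background was 327, 339 and 248 on the control arrays and 360, 383 and 380 on the 2 Gy arrays, and their part in the many small rises was not tested. Of the 89 higher miRNAs, 47 were above background on all 6 arrays, 37 on 1 to 5 and 5 on none. All 19 lower miRNAs were above background on all 6 arrays. The 2 groups did not overlap for 135 higher (32.4%) and 23 lower (5.52%) of the 417 miRNAs.

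miR-34a-5p, the main product of the p53-driven hairpin, was at 11.59, 11.68 and 11.47 in the control mice and at 12.45, 12.37 and 12.41 in the 2 Gy mice. Every irradiated mouse lay above every control. The means were 11.58 ± 0.10 and 12.41 ± 0.04 (SD, n = 3), a log2 difference of 0.83 (SE 0.0629, adjusted p = 8.53e-07, limma) or 0.66 above the median. Each of its 2 probes rose, by 0.77 and 0.89. The other arm, miR-34a-3p, was above background on 0 of 3 control arrays and 2 of 3 irradiated arrays. It was measured at 5.23 ± 0.06 and 5.73 ± 0.04 (SD, n = 3; adjusted p = 0.000109, limma), which as a bound against background is at least 1.00-fold higher. It was kept through irradiated arrays, so its p rests on control values that are only upper limits.

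miR-142a-3p was at 13.08, 13.30 and 13.44 in the control mice and at 11.78, 11.93 and 11.96 in the irradiated mice. The lowest control thus stood more than 1 log2 unit above the highest irradiated mouse. The means were 13.27 ± 0.18 and 11.89 ± 0.10 (SD, n = 3), a log2 difference of -1.38 (SE 0.115, adjusted p = 1.25e-06, limma), so that the level fell by 61.7%. miR-142a-5p was at 10.49, 10.58 and 10.78 against 9.10, 9.34 and 9.39, again without overlap. Its difference was -1.34 (SE 0.113, adjusted p = 1.25e-06, limma), close to that of the other arm. The 2 probes of each arm differed little, with changes of -1.40 and -1.37 for the 3p arm and of -1.35 and -1.33 for the 5p arm.

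miR-150-5p, the lymphocyte miRNA, was at 8.30, 8.55 and 8.66 in control lungs and at 7.58, 7.72 and 7.81 in irradiated lungs. It fell by 0.80 on the log2 scale (SE 0.0967, adjusted p = 8.23e-05, limma). miR-223-3p, the myeloid miRNA, was at 11.93, 11.69 and 11.47 against 11.21, 11.29 and 11.36. Its groups did not overlap, but the highest irradiated mouse came close to the lowest control. It fell by 0.41 (SE 0.138, adjusted p = 0.0447, limma).

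**Figure D2:**
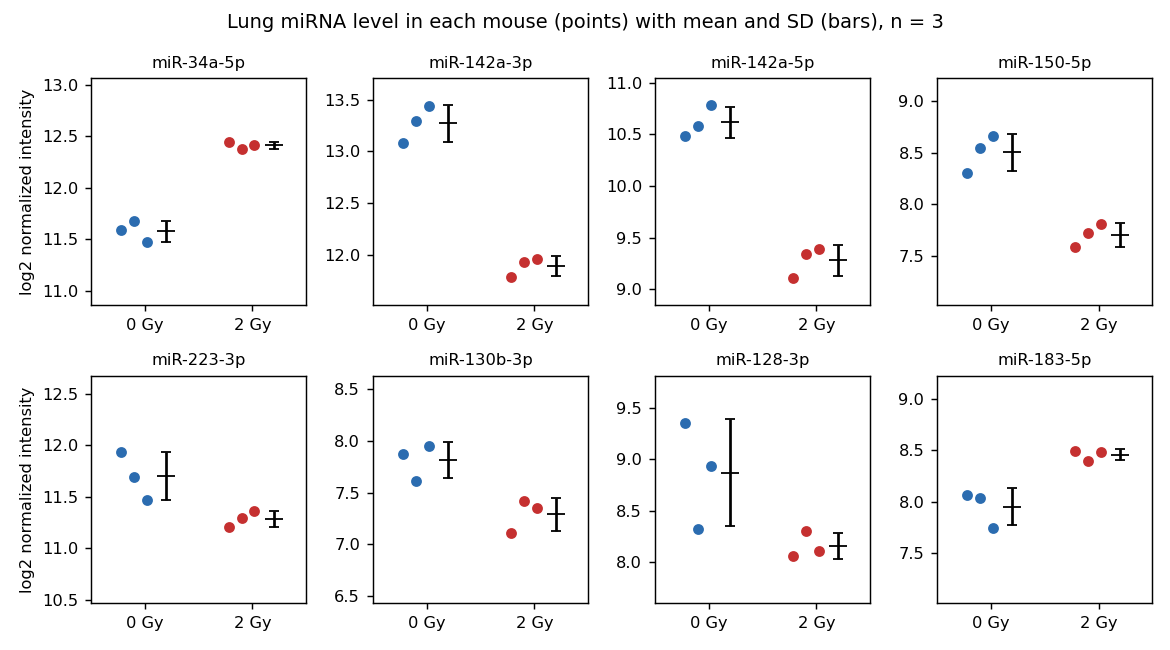
Level of 8 miRNAs (y, log2 normalized intensity; every panel spans the same range) in each of 3 control mice (blue) and 3 mice at 2 Gy (red), with bars for the mean and SD. The groups lie far apart for miR-34a-5p and for both arms of miR-142a, and almost touch for miR-128-3p and miR-223-3p.

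By the rule used for naming, the 10 largest falls among miRNAs above background on all 6 arrays with no overlap were the 4 just given for the leukocyte miRNAs and 6 more. miR-128-3p was at 9.36, 8.32 and 8.93 against 8.06, 8.30 and 8.11. The controls were spread widely and the highest irradiated mouse nearly reached the lowest of them. It fell by 0.71 (SE 0.186, adjusted p = 0.0203, limma). miR-212-3p was at 7.15, 7.52 and 6.95 against 6.50, 6.54 and 6.62, and it fell by 0.65 (adjusted p = 0.0136, limma). Its seed mate miR-132-3p was at 6.89, 6.64 and 6.06 in control lungs and averaged 6.95 ± 0.08 (SD, n = 3) in irradiated lungs, the lowest of which, at 6.86, lay below 1 control. It rose by 0.42 (adjusted p = 0.0474, limma), and counted from the median its 0.25 did not pass (adjusted p = 0.321, limma). miR-130b-3p, a member of the miR-130 and miR-301 seed family, was at 7.87, 7.61 and 7.95 against 7.10, 7.41 and 7.35. It fell by 0.52 (adjusted p = 0.00588, limma). miR-494-3p fell by 0.49, miR-3473g by 0.38 and miR-340-5p by 0.36 (adjusted p = 0.0359, 0.00902 and 0.0017, limma). Of these, miR-340-5p had the tightest groups, with SDs of 0.06 and 0.04.

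Among rises chosen the same way, miR-8110 had the largest mean change, 1.17, and the widest spread. It was at 9.19, 9.23 and 8.93 in control lungs and at 11.11, 10.20 and 9.54 in irradiated lungs, with an adjusted p of 0.0667 in limma. Its sequence ends in a run of G, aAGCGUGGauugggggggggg (chr8:89024791-89024811, plus strand). After miR-8110 and miR-34a-5p came miR-183-5p, a miRNA of epithelial and sensory cells, at 8.06, 8.04 and 7.74 against 8.49, 8.40 and 8.48. It rose by 0.51 (SE 0.1, adjusted p = 0.00585, limma). miR-34c-3p rose by 0.49, miR-6412 by 0.49, miR-200b-5p by 0.44 and miR-24-1-5p by 0.41 (adjusted p = 0.0447, 0.016, 0.0299 and 0.0136, limma). Of the probes averaged, 1 of miR-34c-3p was above background on 2 of 3 control arrays. Those of miR-200b-5p were above it on 1, 2 and 3 control arrays. miR-6937-5p, miR-34b-3p and miR-149-5p had differences of 0.43, 0.40 and 0.40 and did not pass (adjusted p = 0.0957, 0.0966 and 0.127, limma). Counted from the median, 4 miRNAs passed as higher: miR-34a-5p, miR-34a-3p, miR-183-5p and miR-200c-3p, the last of which was named after its values were seen. Among them, miR-34a-3p had control values below background. miR-183-5p passed from the median in 12 of 22 settings. It did not pass without control mouse 11 or 21, or without any 1 of the 2 Gy mice.

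The miRNA lists were then read as counts against the 21.3% higher and 4.56% lower of all tested miRNAs. Of 11 p53-linked miRNAs tested, 4 were higher and 0 lower, with a median of 0.23. They were both arms of miR-34a, miR-34c-3p and miR-192-5p. Counted from the median, both miR-34a arms were higher and 1 member, miR-107-3p, was lower. In both counts miR-34a-3p enters with control values below background. Without control mouse 21 or 2 Gy mouse 23, 2 of the 11 were higher, without control mouse 11 it was 6, and with slide as a term over both tissues 0 were. miR-34b-5p, which shares the miR-34a-5p seed, was at 13.34, 13.29 and 12.92 against 13.58, 13.38 and 13.30. Its groups overlapped and its difference of 0.23 did not pass (adjusted p = 0.136, limma). Among tested miRNAs with a mature sequence in the reference, 4 had the seed GGCAGUG. Their changes ran from 0.14 to 0.83, and 1 of them passed as higher. miR-34c-5p had no sequence there, so it was not in this count, and it differed by 0.19 (adjusted p = 0.278, limma).

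Of 11 leukocyte miRNAs tested, 5 were lower and 1 higher, with a median of -0.07. With 1 mouse left out, 3 or 4 were lower (3 without control mouse 11, 2 Gy mouse 13 or 2 Gy mouse 23) and 0 higher. The lower ones were both arms of miR-142a, miR-150-5p, miR-223-3p and miR-146a-5p, a brake on inflammatory signalling, which fell by 0.21 (adjusted p = 0.0359, limma). The higher one was miR-181b-5p, and miR-342-3p had a difference of 0.14 (adjusted p = 0.231, limma). Scaled to the 75th percentile of all probes, 8 of the 11 were higher and 0 lower, and scaled to that of probes above background 0 were higher and 8 lower. Counted from the median, 6 were lower and 0 higher in the main scaling, 3 and 0 with all probes, and 3 lower and 3 higher with probes above background.

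Of 12 airway epithelium miRNAs tested, 3 were higher and 0 lower, with a median of 0.25. The 3 became 1 without 2 Gy mouse 23 and 6 without control mouse 11, 12 with the 75th percentile of all probes, and 2 with 1 lower with that of probes above background. They were miR-200c-3p, miR-429-3p and miR-34c-3p, and counted from the median miR-200c-3p alone passed. From the median 0 were higher without control mouse 11 or any 1 of the 2 Gy mice. With the 75th percentile of probes above background, 10 were. Of the miR-200 family, miR-200b-3p and miR-200a-3p had differences of 0.12 and -0.02. Each averages probes that disagreed. The brighter miR-200b-3p probe rose by 0.29 and the dimmer differed by -0.04 (adjusted p = 0.00525 and 0.718, limma). The miR-200a-3p probes differed by 0.08 and -0.12 (adjusted p = 0.334 and 0.34, limma). Counts for the let-7 family were 2 higher, let-7b-5p and let-7e-5p, and 1 lower of 9, where let-7b-5p rose by 0.19 and let-7f-5p fell by 0.24 (adjusted p = 0.0359 and 0.0217, limma). Counted from the median, 0 of the family were higher and 4 lower. By the adjusted p, 0 were higher without control mouse 1, control mouse 21 or any one 2 Gy mouse, and 0 were lower without 2 Gy mouse 13 or 23. Under both percentile scalings, let-7f-5p lay 0.23 above the median.

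Among 9 miRNAs of the miR-17-92 and miR-106b-25 clusters, which favour cell division, 1 was lower, miR-19b-3p, by 0.17 (adjusted p = 0.0264, limma), and 0 were higher. Its 2 probes disagreed: the brighter differed by 0.07 and the dimmer by -0.40 (adjusted p = 0.377 and 0.000649, limma). The number lower was 1 without control mouse 11 and 0 without any other mouse. There were 5 lower when counted from the median, 1 without control mouse 21, and with the 75th percentile of probes above background 5 were lower by the adjusted p but 5 higher from the median. Of 8 endothelial and smooth muscle miRNAs 2 were higher, miR-145a-3p and miR-214-3p, and 1 lower, miR-126a-5p (log2 difference -0.23, adjusted p = 0.0468, limma). From the median 0 were higher and 3 lower, and without control mouse 21 or 2 Gy mouse 23, 0 were higher by the adjusted p. Leaving out a mouse other than control mouse 21 left 0 lower. miR-126a-3p, the hallmark miRNA of endothelium, was at 16.53, 16.47 and 16.45 against 16.45, 16.39 and 16.46, a difference of -0.06 (adjusted p = 0.361, limma). From the median it lay at -0.23 and passed (adjusted p = 0.00329, limma), but it was 0.43 under both percentile scalings. None of the 6 erythroid, 4 fibrosis-linked and 6 other-tissue miRNAs passed the adjusted p. The erythroid miR-451a was at 15.72, 15.93 and 15.99 against 15.45, 15.84 and 15.86, with overlapping groups. miR-21a-5p, which rises in fibrotic lung, differed by -0.04 (adjusted p = 0.749, limma).

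**Figure D3:**
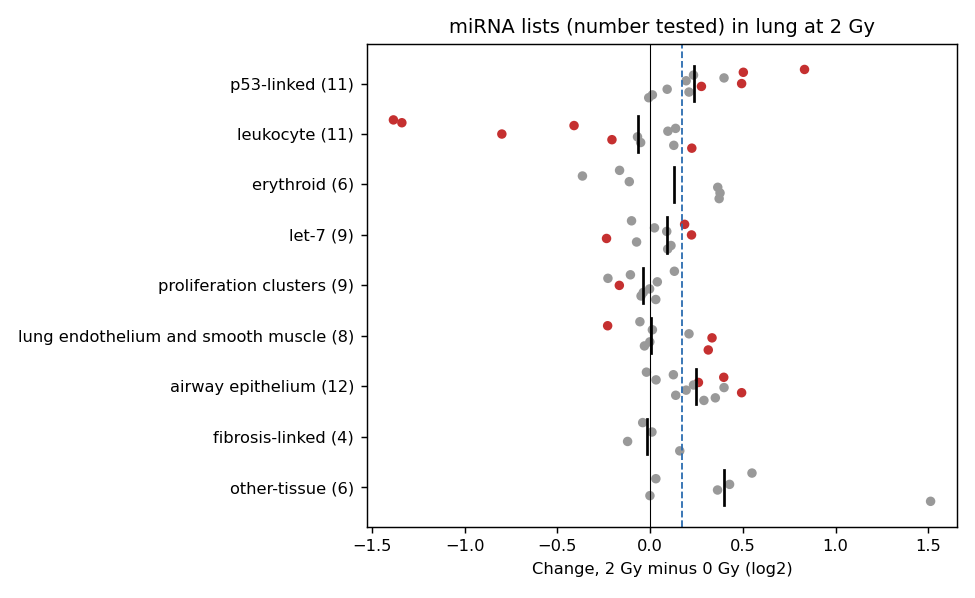
Change at 2 Gy minus 0 Gy (x, log2) of each tested miRNA in 9 lists (rows, with the number tested); red marks an adjusted p below 0.05, short bars are list medians and the dashed line is the median of all 417 miRNAs. The leukocyte list reaches furthest to the left, to -1.38, and the p53-linked list holds miR-34a-5p at 0.83.

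Products of hairpins that lie together in the genome were read against all tested miRNAs, of which 173 of the 248 above background on all 6 arrays and 143 of the 155 on 1 to 5 had positive changes. In the miR-183 cluster on chromosome 6 (chr6:30165962-30169732) all 4 tested products had positive changes, from 0.25 to 0.51, and 2 passed. Of these, miR-183-5p also passed from the median, in 12 of 22 settings. In the cluster of miR-99b, let-7e and miR-125a on chromosome 17, 4 of 6 products were higher, namely both arms of miR-99b, let-7e-5p and miR-125a-5p, and 0 from the median. In the large cluster on chromosome 12 that holds miR-379-5p and miR-494-3p, 1 of 17 tested products passed, miR-494-3p, which was lower. The 8 products of the miR-17-92 cluster on chromosome 14 ranged from -0.23 to 0.13.

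Levels at the other doses were set beside these, with the caution that every dose was compared with the same 3 control mice. miR-34a-5p was at 12.11, 12.01 and 12.08 at 1 Gy, on the slide of the controls, 0.49 above 0 Gy (adjusted p = 0.000738, limma). Against 1 Gy the 2 Gy mice were a further 0.35 higher (adjusted p = 0.0051, limma), a comparison across slides in which 56 miRNAs were higher (13.4%) and 9 lower (2.16%) by the adjusted p. miR-142a-3p was at 12.51, 12.50 and 12.73 at 1 Gy, 0.70 below 0 Gy on the same slide (log2 difference -0.70, adjusted p = 0.0036, limma), and 2 Gy lay -0.69 from 1 Gy (adjusted p = 0.003, limma). miR-150-5p was at 8.10, 7.84 and 8.10 at 1 Gy, a difference of -0.49 from 0 Gy (adjusted p = 0.014, limma). For these 3 miRNAs the 1 Gy mice thus lay between both groups with no overlap. miR-223-3p at 1 Gy differed from 0 Gy by -0.28 (adjusted p = 0.448, limma), and miR-130b-3p by -0.57 (adjusted p = 0.0081, limma) with no further change at 2 Gy.

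From 2 Gy to 4 Gy, 0 of 417 miRNAs passed the adjusted p in limma (0%), with 34 at an unadjusted p below 0.05, and adding slide as a term also gave 0. At 4 Gy, mouse 4 shared the slide of the 2 Gy mice and the other 4 Gy mice did not. Its miR-34a-5p was at 12.49 against 12.44 and 12.44, and its miR-142a-3p at 11.59 against 11.89 and 11.91. At 8 and 12 Gy miR-34a-5p differed from 0 Gy by 1.07 and 1.05, miR-142a-3p by -1.55 and -1.59, and miR-150-5p by -1.18 and -1.40.

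**Figure D4:**
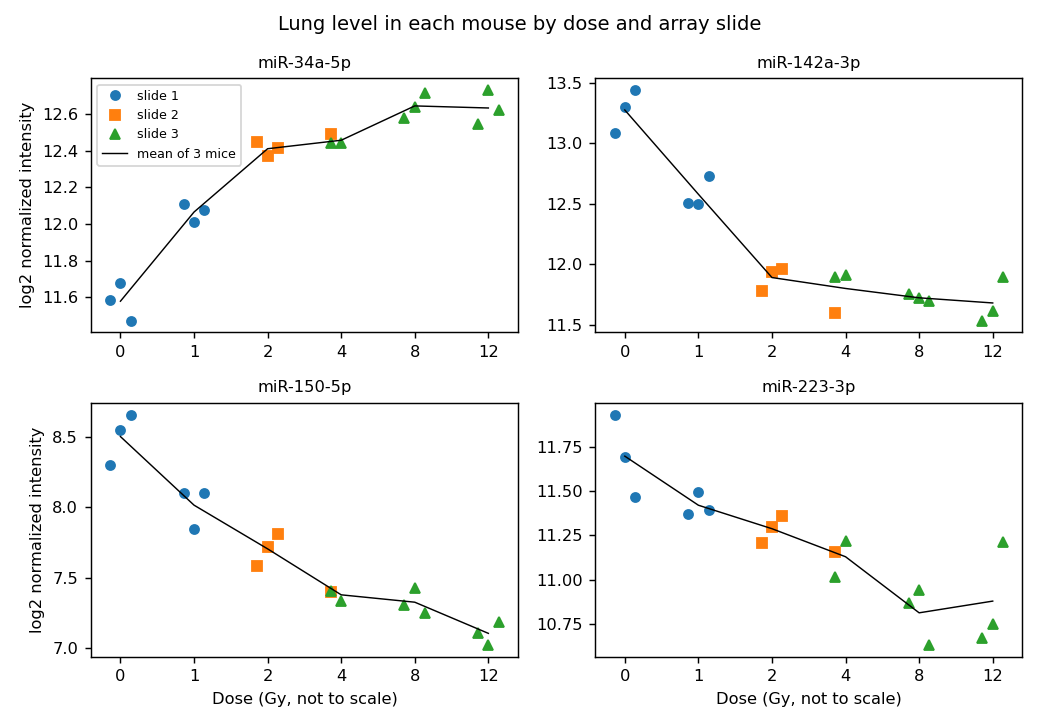
Level (y, log2 normalized intensity, own range per panel) of miR-34a-5p, miR-142a-3p, miR-150-5p and miR-223-3p in each of 18 mice by dose (x, evenly spaced), with the marker showing the array slide and the line joining means of 3 mice. The 0 and 1 Gy points share a slide and already differ for the first 3 miRNAs.

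The liver arrays with the same mouse numbers gave a second reading, with both tissues normalized together. Of 428 miRNAs tested there, 1 had a change at 2 Gy that differed between lung and liver at an adjusted p below 0.05 (0.234%), miR-142a-3p. In this scale it was at 12.25, 12.47 and 12.62 in control lungs and 10.93, 11.08 and 11.10 at 2 Gy, and at 11.30, 11.07 and 11.25 in control livers and 10.63, 11.10 and 10.73 at 2 Gy. The lung groups stood apart and the liver groups overlapped. The lung change minus the liver change was -1.02 (95% interval -1.38 to -0.66, adjusted p = 0.00152, limma). miR-34a-5p rose by 0.85 in liver (SE 0.144, adjusted p = 0.00126, limma), and its lung change minus its liver change was -0.01, with a 95% interval from -0.43 to 0.40. miR-150-5p was above background on 0 of 3 liver arrays at either dose, so its difference of -0.46 (95% interval -0.73 to -0.18, adjusted p = 0.148, limma) sets lung against values near background. With each tissue normalized apart, it was -0.67 and passed (adjusted p = 0.00135, limma). For miR-142a-5p the difference was -0.48 (95% interval -1.36 to 0.40, adjusted p = 0.62, limma) with both tissues together and -1.02 with each apart (adjusted p = 0.00201, limma). In livers at 2 Gy, with both tissues together, it was at 6.20 in mouse 3 and at 8.14 and 7.93 in mice 13 and 23. It was above background on 2 of these 3 arrays.

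The liver also allowed comparisons within a slide, since its controls shared a slide with 2 Gy mice 3 and 13. There miR-34a-5p was 0.96 higher at 2 Gy and miR-142a-3p differed by -0.34. When slide was added as a term over both tissues, miR-142a-3p in lung differed by -1.37 (adjusted p = 0.0039, limma), miR-142a-5p by -2.05 (adjusted p = 0.031, limma) and miR-150-5p by -0.84 (adjusted p = 0.015, limma). miR-34a-5p then differed by 0.51 and did not pass (adjusted p = 0.282, limma). Within the lung alone this term could not be fitted. It therefore leans on liver arrays and takes a slide to shift both tissues alike, which was not tested.

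**Figure D5:**
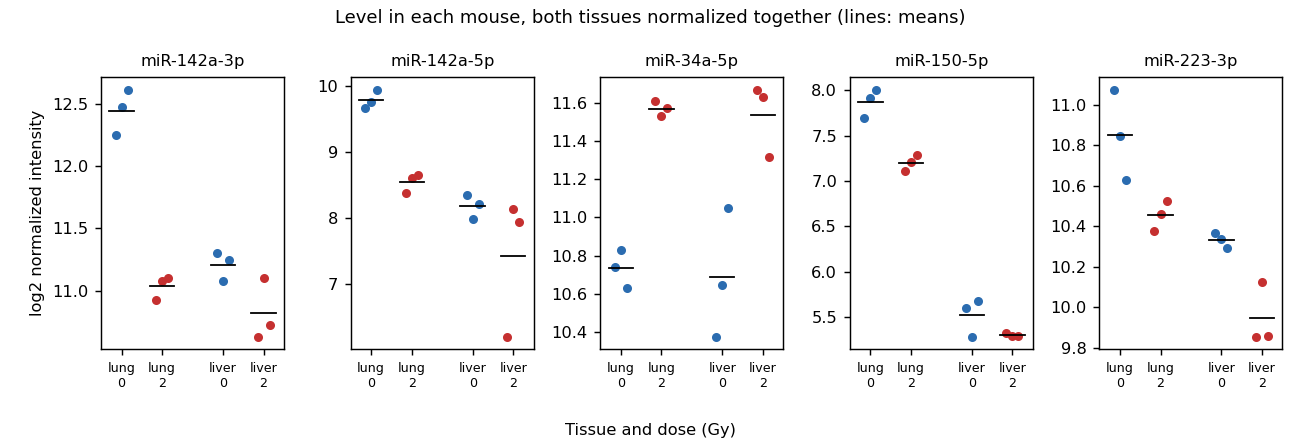
Level (y, log2 normalized intensity, both tissues normalized together, own range per panel) of 5 miRNAs in each mouse at 0 and 2 Gy (x) in lung and liver, with lines at means of 3 mice. miR-142a-3p separates by dose in lung and overlaps in liver, while miR-34a-5p separates in both.

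The lung mRNA arrays with the same mouse numbers were read for genes tied to these miRNAs. Their 0 Gy and 2 Gy arrays also lay on different slides. Of 43667 probes tested, 44 were higher (0.101%) and 201 lower (0.46%) by the adjusted p, and 196 also passed the fold threshold (0.449%). Of 22 p53 target genes 6 were higher and 0 lower, with a median change of 0.60 against 0.01 for all probes. The count ran from 3 to 7 when 1 mouse was left out. Cdkn1a, which halts the cell cycle, was at 11.40, 11.82 and 11.52 in control lungs and 13.54, 13.39 and 13.43 in irradiated lungs, a rise of 1.87 (SE 0.197, adjusted p = 0.000244, limma). Mdm2, the ligase that degrades p53, rose by 0.75 and Eda2r, a death receptor, by 2.69 (adjusted p = 0.019 and 5.08e-06, limma). Ccng1 and Phlda3 had differences of 0.78 and 0.70 (adjusted p = 0.212 and 0.0791, limma).

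Of 14 B cell genes 8 were lower and 0 higher, with a median of -1.81. Cd79b, a chain of the B cell receptor complex, was at 12.94, 13.68 and 13.85 against 11.60, 11.88 and 11.61. Of 13 T cell genes 1 was lower and 0 higher, with a median of -1.26, or -0.77 without control mouse 21. The lower gene was Cd3e, at 10.33, 10.96 and 12.46 against 9.42, 9.54 and 9.58. The summed linear level of the T cell genes ran from 15801 to 62289 in the controls and from 10392 to 12450 at 2 Gy, and that of the B cell genes from 22590 to 48606 and from 9946 to 11667. Control mouse 21 held the highest T cell level, and without it 2 T cell and 8 B cell genes were lower. Without control mouse 1, 5 T cell genes were lower, and without control mouse 11 or any 2 Gy mouse 0 were. Of 14 neutrophil genes 0 passed, with a median of 0.26. Of 20 proliferation genes 7 were lower, with a median of -1.34. The number lower was 15 without control mouse 1 and 1 without 2 Gy mouse 23. Of 12 erythroid genes 2 were lower, with a median of -0.32 over the 12. Alas2, which starts heme synthesis, fell by 4.51. Slc4a1, the red cell anion exchanger, fell by 3.92, although it was above background on 2 of 3 irradiated arrays. How far these lymphocyte levels enter the lower miR-142a and miR-150-5p levels was not tested.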

How the data were processed

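RNA was hybridised to 1-colour Agilent miRNA arrays with 56430 spots besides controls. The deposited intensity values, per the file headers from Feature Extraction 11.5.1.1, hold for every spot the median brightness of its pixels and of the background around it, before normalization. The authors' deposited series values, linear intensities used as an alternative, had column medians of 0.163 to 0.2925 over the kept probes for the 6 arrays, and their scaling is not stated. Their log2 values rose with the log2 background-corrected intensities within each of these arrays (lowest Pearson r 0.9956, over detected probes). That correlation says nothing about differences between arrays. The label protocol describes amplified poly(A) RNA, which fits mRNA arrays; the labelling of the miRNA arrays is not given in the sources used here.

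Intensities were corrected with normexp (offset 0), control spots dropped, outlier spots set to missing, and arrays quantile-normalized and log2-transformed. Spots were averaged per probe, probes kept if at least a 0.5 share of spots was well above background on 1 or more lung arrays (760 probes), and probes averaged per miRNA. A miRNA counted as above background on an array when any 1 of its kept probes was, so its other probes could lie below. limma 3.58.1 (R 4.3.3) fitted 6 dose groups over 18 lung arrays, and 2 Gy minus 0 Gy was tested with Benjamini-Hochberg adjustment. The mRNA arrays were treated alike per probe, and 28613 of 43667 tested probes had a RefSeq gene symbol. "At least" folds set the brighter group against the lowest signal above background on each dim array. No array had a saturated miRNA spot. The mRNA arrays quantile-normalize the brightest lung genes to the same top values. Each mouse is 1 sample, and the number of arrays limits precision.

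The miRNAs, gene lists and tests were chosen with earlier results of these data known. Named miRNAs were those called, the 10 largest changes each way among miRNAs above background on all 6 arrays with no overlap, up to 4 of the brightest of each list, and those the study named in liver; others named were picked after their values were seen, as were Cd3e, Alas2 and Slc4a1. The miRNA test of 2 Gy minus 0 Gy was checked on simulated data with independent noise and no slide shift. That check says nothing about slide or scaling. Mouse numbers were the sample numbers in the labels. They were taken to link a mouse's lung and liver arrays, which the labels do not state. Deviations of the 18 pairs from their group means correlated from -0.212 to 0.12. Alternatives covered probe-level tests, background, scaling, filters, the 6 arrays alone, slide, outlier spots and each mouse left out. Slide as a term could not be fitted within the lung for 2 Gy minus 0 Gy, for 2 Gy minus 1 Gy, or for the mRNA.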

Additional observations from a re-analysis of the deposited data

Results flagged for a closer look

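The change of miR-142a-3p at 2 Gy differed between lung and liver by -1.02 on the log2 scale in a test of the difference itself. It changed by -1.41 in lung and by -0.39 in liver, where the liver change did not pass (adjusted p = 0.265, limma). Leaving out 1 mouse at a time, in both tissues, moved the difference between -0.90 and -1.17, with adjusted p-values from 0.00099 to 0.0318. Lung arrays of 0 and 2 Gy lay on different slides, and liver controls shared a slide with 2 of their 3 irradiated mice. The part of slide in the difference was not tested.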

How the results depend on the processing

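For 2 Gy minus 0 Gy in lung, 2 miRNAs passed the fold and adjusted p thresholds and 108 the adjusted p alone. With probes tested singly these counts were 4 and 183, with processed signals 10 and 44, with the 75th percentile of probes above background on all lung arrays 19 and 258, and with that of all probes 145 and 373. They were 21 and 58 with total gene signals, 8 and 53 with the authors' series values, 4 and 172 with slide as a random block, and 19 and 26 with slide as a term over both tissues. The adjusted p alone gave 5 miRNAs with only the 6 arrays, 15 with both tissues together and no slide term, and 30 with each array centred on its median. The last 2 of these and the slide term were chosen after seeing the data. Leaving out 1 mouse gave 2 miRNAs called each time and 18 to 144 by the adjusted p. The median of all miRNAs moved from 0.17 to -0.36 and 0.83 under the percentile scalings. The cause of these shifts was not tested.

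For 2 Gy minus 1 Gy, 0 miRNAs passed both thresholds, and 16 did with the 75th percentile of probes above background. For lung minus liver, 1 miRNA passed both thresholds, 2 with each tissue normalized apart, 148 with the 75th percentile, and 0 to 2 with 1 mouse left out; for 0, miR-142a-3p kept an adjusted p below 0.05 with a difference under 1. With the mouse as a replicate block the pairing left 1, miR-142a-3p at -1.02 (adjusted p = 0.00196, limma). Mice differ between 0 and 2 Gy, so no pairing exists within lung. The 196 mRNA probes called became 82 to 324 with 1 mouse left out.

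Counted from the median, miR-142a-3p (-1.70 to -1.05) and miR-150-5p (-1.17 to -0.68) passed in all 22 settings, and miR-142a-5p (-1.93 to -1.06) and miR-34a-5p (0.51 to 1.13) in 21, not with slide as a term. Others changed sign, where a change between values that both missed the threshold was not counted. Under both percentile scalings let-7a-5p came to 0.40, let-7c-5p to 0.48, let-7f-5p to 0.23, miR-106b-5p to 0.28, miR-126a-3p to 0.43, miR-146a-5p to 0.10, miR-199a-3p to 0.41 and miR-19b-3p to 0.18. With probes above background alone as the base, miR-143-3p came to 0.37, miR-199a-5p to 0.27, miR-200a-3p to 0.33, miR-200b-3p to 0.43, miR-20a-5p to 0.35, miR-21a-5p to 0.36, miR-25-3p to 0.32, miR-29a-3p to 0.50, miR-29c-3p to 0.54 and miR-342-3p to 0.39. With the authors' series values let-7a-5p came to 0.14, let-7c-5p to 0.22, miR-106b-5p to 0.0438, miR-126a-3p to 0.18 and miR-199a-3p to 0.16. let-7c-5p came to 0.0054 with total gene signals, to 0.0349 with no filter and to 0.12 with slide as a term, miR-199a-3p to 0.0098 with no filter, and miR-19b-3p to 0.25 with slide as a term.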

Other observations

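Muscle miRNAs varied among mice of both groups. miR-206-3p, a skeletal muscle miRNA, was at 5.00, 8.91 and 4.90 in control lungs and at 9.38, 9.02 and 4.95 at 2 Gy, and it was above background on 1 of 3 and 2 of 3 arrays. miR-133a-3p was likewise higher in control mouse 11 and in 2 Gy mice 3 and 13, at 10.82, 11.06 and 10.73, than in the other 3 mice, at 9.57, 9.87 and 9.76. The liver miRNA miR-122-5p was at 6.21, 6.45 and 7.03 against 7.61, 6.92 and 6.80, with overlapping groups.

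Some miRNAs that the study named in liver had wide 2 Gy groups in lung. miR-211-3p was at 6.61, 6.70 and 5.99 against 8.30, 7.52 and 6.83, a difference of 1.11 (adjusted p = 0.0849, limma). In the same mice miR-8110 had its highest level in mouse 3 and its lowest irradiated level in mouse 23, as miR-211-3p did. miR-5126 and miR-3960 had differences of 0.47 and 0.37 (adjusted p = 0.052 and 0.0754, limma), and miR-3102-5p rose by 0.32 (adjusted p = 0.0468, limma). Counted from the median, miR-3102-5p lay at 0.15 and did not pass (adjusted p = 0.45, limma). It passed from the median in 1 of 22 settings.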
